A study of Mus musculus with 8 samples.

Results

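Src family kinases and the genes that restrain them were followed in splenic B cells of mice that carry the human germinal centre gene HGAL and of mice that do not. The members were chosen by name: the kinases Lyn, Fyn, Blk, Fgr, Yes1 and Lck, and the inhibitory regulators Csk, Pag1 and Ptpn22. Of these 9 genes, 7 had a probe set that the platform annotation pairs with their symbol alone, and each had 1 such probe set, out of 21640 probe sets for 19937 genes. Lyn and Lck were not analysed here. There were 4 Sca1-HGAL and 4 Control samples of total RNA, each hybridised to 1 Affymetrix Mouse Gene 1.0 ST array. Sca1-HGAL mice express HGAL (also called GCET2) from the Sca1 (Ly-6E.1) promoter, and the labels describe the allele as a knock-in in one place and a transgene in another. Control mice are wild-type littermates, and both groups are adult and of the CBAxC57BL/6J background. Cells positive for CD22 and B220 were sorted from spleen in both groups, and no array checks the human transgene, since the probes were designed for mouse genes.

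Src family kinases are membrane-anchored tyrosine kinases that start signalling from the B-cell receptor. They phosphorylate the receptor's activating ITAM tails, which then recruit the kinase Syk, and they also phosphorylate the ITIM tails of inhibitory receptors such as CD22, which then recruit phosphatases. Their own activity is held down by a tyrosine near the C-terminus: Csk phosphorylates it and closes the kinase, and the phosphatase CD45, the product of Ptprc, opens it again. Pag1 is a membrane adaptor that binds Csk, and Ptpn22 is a phosphatase that acts with Csk by removing the activating phosphate from the kinases. The series title ties HGAL to Syk activation through the B-cell receptor. These arrays measure RNA and give no value for phosphorylation or kinase activity.

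Promoter windows are shown for the members with the smallest p-values in the comparison below, Ptpn22 and Yes1. They come from RefSeq on build GRCm38.p6 and run from 250 bases before an annotated start to 50 bases after it, 5′ to 3′ on the gene's strand. Ptpn22 has a pair of annotated starts on the plus strand of chromosome 3, at chr3:103859545-103859844 and chr3:103860027-103860326, and the Yes1 window is on the plus strand of chromosome 5, at chr5:32610921-32611220. Capitals mark each match, on either strand, to the motifs searched, which were the ETS core with the letters GGAAGT, the GC box with the letters GGGCGG and the TATA box with the letters TATAAA. The matches shown do not overlap.
Ptpn22 upstream start: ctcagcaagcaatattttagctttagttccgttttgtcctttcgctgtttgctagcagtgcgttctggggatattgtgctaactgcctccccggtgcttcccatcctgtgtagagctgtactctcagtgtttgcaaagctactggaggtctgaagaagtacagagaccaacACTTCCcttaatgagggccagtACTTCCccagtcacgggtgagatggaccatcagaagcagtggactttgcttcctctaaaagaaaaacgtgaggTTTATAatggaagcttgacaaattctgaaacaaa
Ptpn22 downstream start: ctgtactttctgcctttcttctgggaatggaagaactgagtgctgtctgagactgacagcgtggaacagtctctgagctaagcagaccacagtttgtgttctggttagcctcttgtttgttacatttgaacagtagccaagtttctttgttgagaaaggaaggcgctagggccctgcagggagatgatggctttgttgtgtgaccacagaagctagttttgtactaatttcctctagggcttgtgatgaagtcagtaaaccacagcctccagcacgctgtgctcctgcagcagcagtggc
Yes1: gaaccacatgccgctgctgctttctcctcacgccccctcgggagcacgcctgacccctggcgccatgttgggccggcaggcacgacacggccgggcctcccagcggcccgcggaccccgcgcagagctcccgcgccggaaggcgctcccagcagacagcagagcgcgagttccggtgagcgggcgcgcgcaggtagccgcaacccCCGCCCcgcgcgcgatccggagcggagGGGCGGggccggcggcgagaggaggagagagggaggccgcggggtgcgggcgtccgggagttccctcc

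The Ptpn22 windows had less GC than the median window and the Yes1 window had more. GC content was 46.0% in the upstream and 48.7% in the downstream Ptpn22 window, and 77.0% in the Yes1 window, against a median of 52.7% over 32851 windows of the same length. The Yes1 window held 42 CpG dinucleotides and the Ptpn22 windows 6 and 3, against a median of 7. The upstream Ptpn22 window held 2 ETS cores and 1 TATA match, all on the minus strand. The TATA match lay 16 bases after the annotated start, and the downstream window held no match to any of the letters searched. The Yes1 window held 2 GC boxes. An ETS core was found in 23.8% of all windows, a GC box in 35.7% and a TATA match in 13.6%. Among the other members with a window in this table, GC content was 69.0% for Fyn, 62.7% for Fgr, and 66.3% and 56.0% for the windows of Csk, and 57.3% and 58.3% for those of Lck. The single Ptpn22 probe set cannot tell transcripts from the separate starts apart.

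The sorted cells carried B-cell RNA at high intensity. All values are log2 of the deposited intensity unless a sentence says otherwise, and differences are Sca1-HGAL minus Control with the standard error (SE) from limma. Cd79a, a B-cell receptor chain, was at 13.29 ± 0.03 in Sca1-HGAL arrays and 13.40 ± 0.07 in Control arrays (SD, n = 4 each), and Ms4a1, which encodes CD20, was at 13.11 ± 0.09 and 13.21 ± 0.08. Genes listed for other cell types were also measured: 13 of 14 T cell and 11 of 12 macrophage and monocyte list genes had a Control mean above log2 6. The counts were 6 of 9 for the NK cell list and 9 of 11 for the neutrophil list. Among all probe sets tested, 16994 of 21640 had a mean above log2 6 over all arrays. These counts therefore do not show whether such cells were present. The median intensity of an array lay between 145.2 and 151.4 on the linear scale, and 4 arrays a group limit the precision. Nothing in the labels ties each array to a mouse of its own. The p-values therefore cover only the spread among these samples, which may be technical in part. Control replicates 2 and 4 stood apart in Xist, which coats the silenced X chromosome in female cells. Xist was at 12.17 and 12.18 there, and between 5.28 and 5.65 on the other 6 arrays. The Y-linked gene Eif2s3y was at 4.22 and 3.96 on these 2 arrays, so sex is unbalanced between the groups, and for the members values without them are given where they end a call or move a difference by over 1.5 times.

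The array intensities of the kinases kept the order Blk, Fyn, Fgr, Yes1 on 8 of 8 arrays. Blk, a kinase of the B lineage, was at 11.65 ± 0.18 in Sca1-HGAL and 11.64 ± 0.03 in Control arrays (SD, n = 4 each), brighter than 98.5% of probe sets. Fyn, which T cells also use, stood 1.91 ± 0.30 below Blk (SD of the gap over 8 arrays). Fgr, a kinase best known from myeloid cells, stood 1.03 ± 0.35 below Fyn and was brighter than 72.0% of probe sets. Yes1, a widely expressed kinase, stood 2.82 ± 0.16 below Fgr. The Yes1 mean over all arrays was 5.89, brighter than 19.3% of probe sets, and the files carry no detection calls, so this intensity may be near background. Each of these gaps was larger than its spread over the arrays. Probe sets bind with different strength, so this is an order of intensities and not of RNA amounts.

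Among the brakes, Csk was the brightest on 8 of 8 arrays, and the order of Ptpn22 and Pag1 was less settled. The Csk mean over all arrays was 11.40, brighter than 97.9% of probe sets. Ptpn22 stood 1.13 ± 0.49 below Csk (SD of the gap over 8 arrays), with a mean gap of 0.84 in Sca1-HGAL and 1.42 in Control arrays. Ptpn22 was above Pag1 on 7 of 8 arrays, and the mean gap of 0.58 ± 0.50 was barely larger than its spread. Over all 7 genes, Ptpn22 and Fyn, and Fyn and Pag1, were neighbours whose mean gap was smaller than its SD over the arrays: the first pair differed by 0.53 ± 0.68 and the second by 0.05 ± 0.26.

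**Figure D1:**
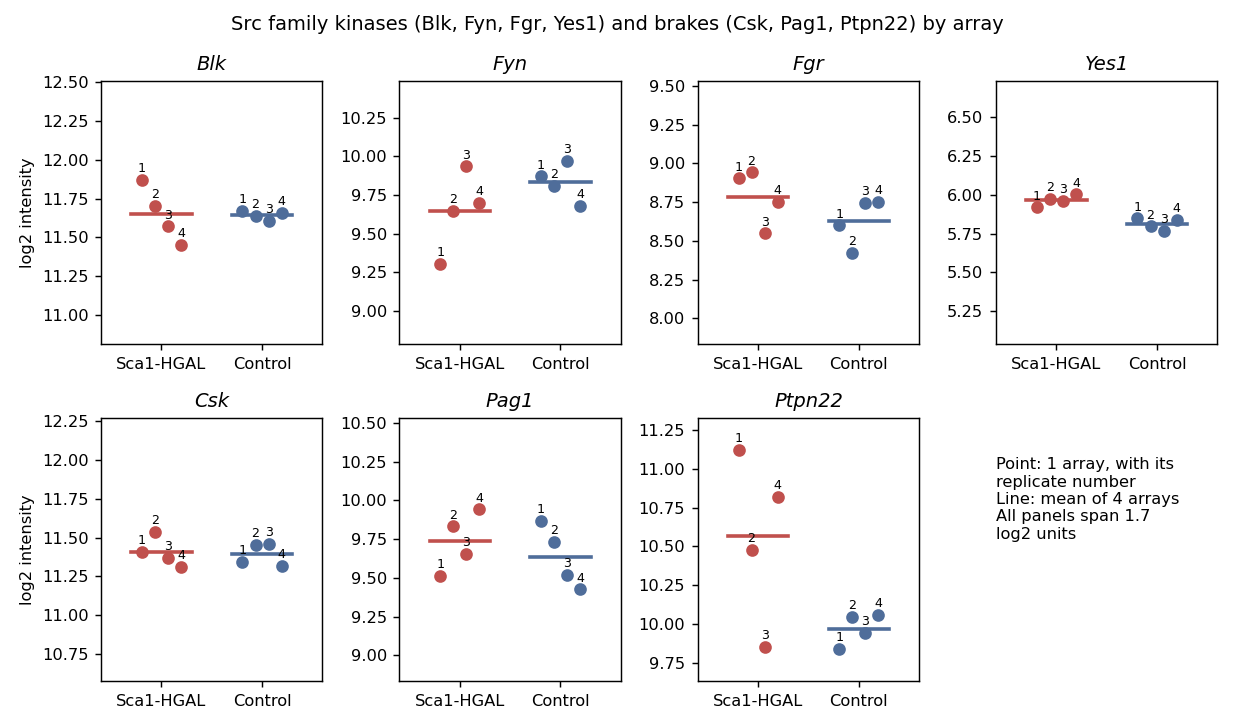
Log2 intensity of the 7 analysed genes on each array (numbered points), with Sca1-HGAL arrays left of Control arrays, lines at the group means, and every panel spanning 1.7 log2 units. Ptpn22 runs from 9.85 to 11.12 in Sca1-HGAL arrays and from 9.84 to 10.06 in Control arrays, while the Yes1 groups do not overlap and lie close together.

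No member passed limma at an adjusted p under 0.05 over all probe sets tested. The count was 0 of 7, and 1 of 21640 probe sets, or 0.00462%, passed. At an unadjusted p under 0.05 the members Ptpn22 and Yes1 were called, 2 of 7, both higher in Sca1-HGAL arrays, against 9.59% of all probe sets in either direction, 5.53% on the higher and 4.06% on the lower side. This count depended on the arrays used: it was 0 of 7 without the 2 Xist-high arrays and 1 of 7, Ptpn22, with high Xist as a covariate. It was 1 of 7, Yes1, without Sca1-HGAL replicate 1, Sca1-HGAL replicate 4 or Control replicate 1, and 4 of 7 without Sca1-HGAL replicate 3, where Fyn and Fgr were called too. The differences of all 7 members are given below. The median difference of the 7 members was 0.10, with 6 positive and 1 negative, against a median of 0.01 over all probe sets, of which 56.1% were positive. The members' median size of difference, without sign, was 0.15, against 0.07 over all probe sets.

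Blk and Csk, the brightest kinase and the brightest brake, had nearly equal means in both groups. Blk was at 11.87, 11.70, 11.57 and 11.45 in Sca1-HGAL arrays 1 to 4, against 11.67, 11.64, 11.61 and 11.66 in Control arrays 1 to 4. The Sca1-HGAL arrays lay on both sides of the Control arrays and were more spread, with an SD of 0.18 against 0.03, and 97.1% of probe sets had a larger SD than Blk in Control arrays. The Blk difference was 0.01 (SE 0.09, limma adjusted p = 0.99), and its 95% interval from -0.19 to 0.20 covers linear folds of 0.878 to 1.15. Csk, the kinase that closes the Src family kinases, was at 11.41, 11.54, 11.37 and 11.31 in Sca1-HGAL arrays, against 11.34, 11.45, 11.46 and 11.32 in Control arrays. The Csk groups overlapped almost wholly. The Csk difference was 0.01 (SE 0.07, limma adjusted p = 0.98), with a 95% interval from -0.14 to 0.17, or linear folds of 0.908 to 1.12. The intervals leave room for changes smaller than those folds. Without the 2 Xist-high arrays the difference was 0.0106 for Blk and 0.0047 for Csk, against 0.0053 and 0.0129 with all arrays.

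Fyn had the one negative difference among the members. It was at 9.30, 9.65, 9.93 and 9.70 in Sca1-HGAL arrays, against 9.87, 9.81, 9.97 and 9.68 in Control arrays. Sca1-HGAL replicate 1 was the lowest array, Sca1-HGAL replicate 3 was among the highest, and the groups overlapped. The difference was -0.19 (SE 0.12, 95% interval -0.46 to 0.09, limma adjusted p = 0.68). Without Sca1-HGAL replicate 1 it was -0.07, and without Sca1-HGAL replicate 3 it was -0.28 (SE 0.11, limma adjusted p = 0.38). T cells and NK cells also express Fyn, and the mean log2 level of 14 T cell list genes was highest, at 7.89, on Sca1-HGAL replicate 1, the array with the lowest Fyn. That list level ran from 7.13 to 7.89 in Sca1-HGAL arrays and from 7.38 to 7.66 in Control arrays, and that of 9 NK cell list genes from 5.94 to 6.73 and from 6.28 to 6.80. Among the Control arrays, replicate 3 was the highest for Fyn, at 9.97, and for these T cell and NK cell lists, at 7.66 and 6.80. In such a sort, fewer cells of a type and less RNA per cell cannot be told apart. The part of these cell types in the Fyn values was not tested.

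Fgr varied by about as much within the groups as between them. It was at 8.90, 8.94, 8.55 and 8.75 in Sca1-HGAL arrays, against 8.60, 8.42, 8.74 and 8.75 in Control arrays. Sca1-HGAL replicates 1 and 2 were the highest arrays, Control replicate 2 was the lowest, and the groups overlapped. The difference was 0.16 (SE 0.10, 95% interval -0.08 to 0.39, limma adjusted p = 0.68), and without Sca1-HGAL replicate 3 it was 0.24 (SE 0.10, adjusted p = 0.41). Without Control replicate 2 it was 0.09, a smaller difference by more than 1.5 times. The mean level of 11 neutrophil list genes ran from 6.33 to 7.50 in Sca1-HGAL arrays and from 6.15 to 6.79 in Control arrays. All 11 genes had a positive difference, and 5 had an unadjusted limma p under 0.05. Over all probe sets, 56.1% of differences were positive, 9.59% had such a p, and the groups of 5.45% did not overlap. Among 12 macrophage and monocyte list genes, 5 differences were positive, and 2 genes had an unadjusted p under 0.05 with groups that did not overlap. These were Adgre1, which encodes the macrophage marker F4/80, with 1.01 (SE 0.19, limma adjusted p = 0.12), and Itgam, an integrin gene, with 0.99 (SE 0.26, limma adjusted p = 0.26). The macrophage and monocyte list level ran from 7.33 to 7.86 in Sca1-HGAL and from 7.35 to 7.76 in Control arrays. On Control replicate 2, where Fgr was lowest, that list was at 7.76, the highest Control value, and the neutrophil list at 6.23, the second lowest Control value. On Sca1-HGAL replicates 1 and 2, where Fgr was highest, the neutrophil list was also highest, at 7.50 and 6.94. The part of these cell types in the Fgr values was not tested.

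Yes1 was the one member whose groups did not overlap, 1 of 7 against 5.45% of all probe sets in either direction, 3.15% on the higher and 2.3% on the lower side. It was at 5.92, 5.97, 5.96 and 6.00 in Sca1-HGAL arrays, against 5.85, 5.80, 5.77 and 5.84 in Control arrays. Every Sca1-HGAL array was above every Control array, and the nearest arrays of the groups were 5.92 and 5.85. The difference was 0.15 (SE 0.05, 95% interval 0.03 to 0.27, limma adjusted p = 0.41), a linear fold of 1.11. The probe set was dimmer than most and may be near background, and its fold and the lack of overlap carry that limit. Both groups were tight: 96.2% of probe sets had a larger SD than Yes1 in Sca1-HGAL arrays and 93.7% in Control arrays. With filters that keep probe sets above log2 6 Yes1 drops out of the test. Without the 2 Xist-high arrays the difference was 0.16 (limma unadjusted p = 0.070, adjusted p = 0.64), and with high Xist as a covariate its unadjusted limma p was 0.0525.

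Ptpn22 had the largest difference of the 7 genes, carried by 3 of the 4 Sca1-HGAL arrays. It was at 11.12, 10.48, 9.85 and 10.82 in Sca1-HGAL arrays 1 to 4, against 9.84, 10.04, 9.94 and 10.06 in Control arrays 1 to 4. Sca1-HGAL replicates 1, 2 and 4 lay above every Control array, and replicate 3 lay within the Control range. The difference was 0.60 (SE 0.22, 95% interval 0.10 to 1.09, limma adjusted p = 0.43), a linear fold of 1.51 with an interval from 1.08 to 2.13. It was larger in size than the difference of 99.0% of probe sets. The Sca1-HGAL arrays were widely spread, with an SD of 0.55 that 1.13% of probe sets exceeded, against 0.10 in Control arrays. Without Sca1-HGAL replicate 3 the difference was 0.84 (SE 0.14, limma adjusted p = 0.062), still short of the threshold although 40 probe sets passed in that setting. Without Sca1-HGAL replicate 1 it was 0.41 (limma unadjusted p = 0.056, adjusted p = 0.43), and without the 2 Xist-high arrays 0.68 (limma unadjusted p = 0.054, adjusted p = 0.62). The unadjusted limma p was 0.063 without Sca1-HGAL replicate 4 and 0.054 without Control replicate 1.

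**Figure D2:**
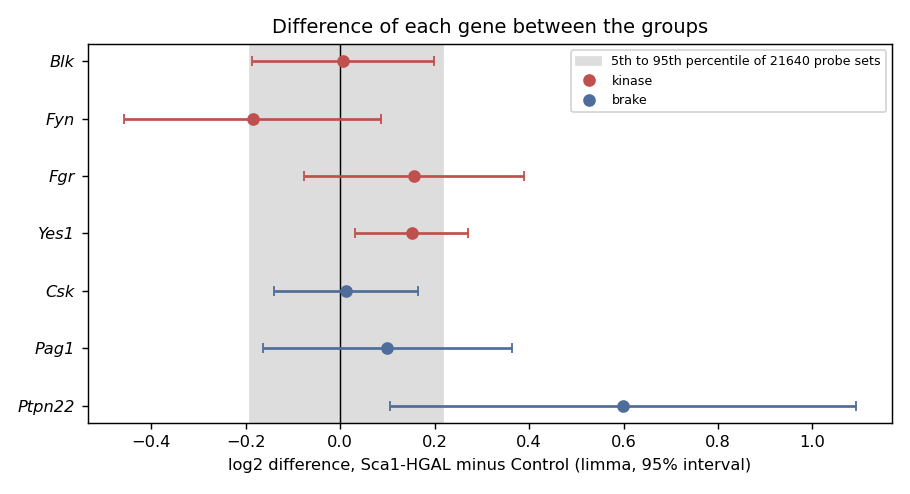
Log2 difference of each gene, Sca1-HGAL minus Control, from limma with its 95% interval, on a band from the 5th to the 95th percentile of all 21640 probe sets, which runs from -0.19 to 0.22. Ptpn22 at 0.60 lies outside the band with the widest interval, and the interval of Yes1 is the other one that does not reach 0.

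The Ptpn22 values moved with a list of genes high in B-1 and age-associated B cells. The mean level of its 11 genes was 9.10, 8.92, 8.09 and 8.63 in Sca1-HGAL arrays 1 to 4, against 7.89, 7.94, 7.95 and 7.95 in Control arrays. Replicate 3 was the lowest Sca1-HGAL array for this list and for Ptpn22, and replicate 1 the highest for both. All 11 genes of the list had a positive difference, with a median of 0.81, and 0 passed limma over all probe sets. At an unadjusted limma p under 0.05 there were 8, against 9.59% of all probe sets. The list was picked with earlier results of these samples known and is not independent evidence of its direction. Itgam is in this list and also in the macrophage and monocyte list. Other B-cell lists also stood apart between the groups, but they were picked with the same knowledge and are not independent evidence either. Of 11 marginal zone B list genes, 10 had a negative difference, with a median of -0.51. An unadjusted limma p under 0.05 was found for 8, against 9.59% of all probe sets. The groups of 7 did not overlap, against 5.45% of all probe sets. None passed limma at an adjusted p under 0.05. That list level ran from 9.58 to 9.64 in Sca1-HGAL arrays and from 9.95 to 10.29 in Control arrays, so Sca1-HGAL replicate 3 lay with the other Sca1-HGAL arrays. The level of 9 general B-cell list genes ran from 12.84 to 12.920 in Sca1-HGAL arrays, all below the Control arrays at 12.924 to 13.02. Cr2 is in both the marginal zone and the general B-cell list. Within the Sca1-HGAL group, the T cell, NK cell and neutrophil lists shared their highest and lowest array with Ptpn22. Replicate 2 was above replicate 4 in these lists and in the B-1 and age-associated B list, and below it for Ptpn22. The macrophage and monocyte list was highest on replicate 4, at 7.86, and lowest on replicate 3, at 7.33. The T cell list was highest on replicate 1, at 7.89, and lowest on replicate 3, at 7.13, and the neutrophil list was at 7.50 and 6.33 on these arrays. Cd3e, a chain of the T-cell receptor complex, was at 9.33, 8.99, 8.03 and 8.89 in Sca1-HGAL arrays, against 8.42, 8.96, 8.86 and 8.63 in Control arrays. T cells express Ptpn22 too. The T cell list was at 7.64 and 7.56 on Sca1-HGAL replicates 2 and 4, and ran from 7.38 to 7.66 in Control arrays. The part of any of these cell types in the Ptpn22 difference was not tested.

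**Figure D3:**
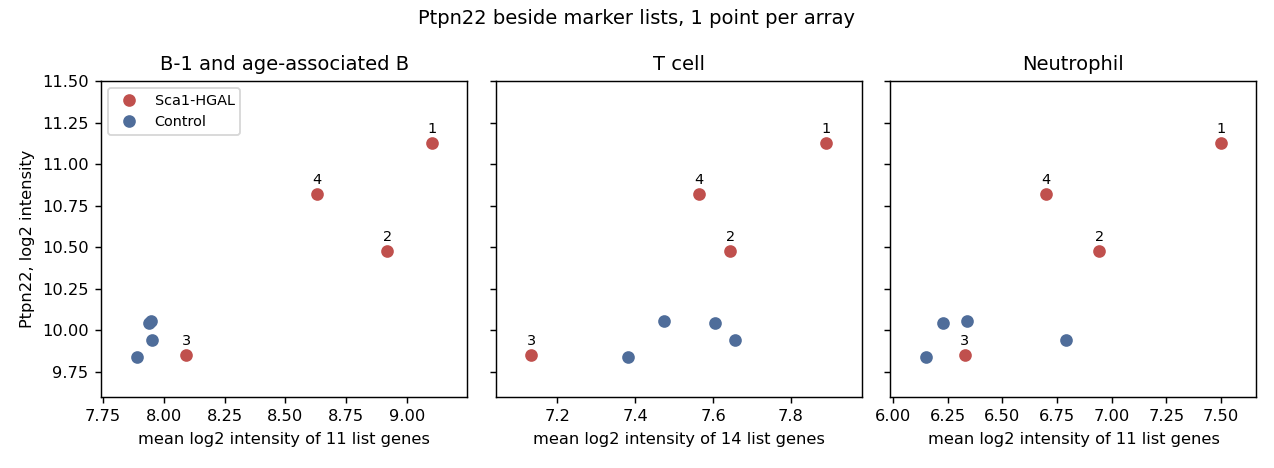
Log2 intensity of Ptpn22 against the mean log2 intensity of 11 B-1 and age-associated B, 14 T cell and 11 neutrophil list genes, 1 point per array, with the Sca1-HGAL replicate numbers. Sca1-HGAL replicate 3 lies beside the Control arrays for Ptpn22 and close to them for the B-1 and age-associated list, at 8.09 against 7.89 to 7.95.

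Pag1, the adaptor that brings Csk to the membrane, differed by less than its spread. It was at 9.51, 9.83, 9.65 and 9.94 in Sca1-HGAL arrays, against 9.87, 9.73, 9.52 and 9.43 in Control arrays. High and low arrays were found in both groups, which overlapped. The difference was 0.10 (SE 0.12, 95% interval -0.16 to 0.36, limma adjusted p = 0.84). It was 0.03 without Sca1-HGAL replicate 4, and likewise 0.03 without Control replicate 4. It was 0.17 without Sca1-HGAL replicate 1 and 0.18 without Control replicate 1. It was 0.06 without Control replicate 3 and 0.04 without the 2 Xist-high arrays.

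**Figure D4:**
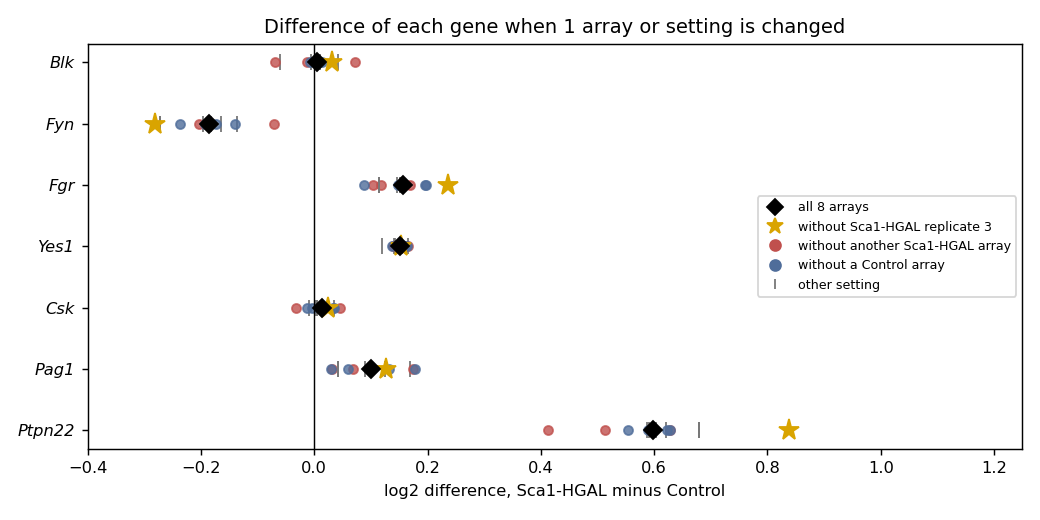
Log2 difference of each gene, Sca1-HGAL minus Control, with all 8 arrays (diamond), without 1 array at a time (circles, star for Sca1-HGAL replicate 3) and under the other settings (bars). Ptpn22 stays between 0.41 and 0.84, and Blk and Csk lie on both sides of 0.

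Genes whose intensities followed a member most closely over the 8 arrays were named for the 5 members that varied more than the median gene. For Ptpn22 they were Sla, the gene of the Src-like adaptor, with Pearson r = 0.994 (Spearman rho = 0.95), Shtn1 with r = 0.978 (rho = 0.98) and St8sia6, a sialyltransferase gene, with r = 0.974 (rho = 0.95). Sla was at 11.68, 11.38, 10.99 and 11.54 in Sca1-HGAL arrays, against 11.04, 11.18, 11.07 and 11.15 in Control arrays. Among the Sca1-HGAL arrays, replicate 1 was the highest and replicate 3 the lowest for Sla, as for Ptpn22, and its difference was 0.28 (SE 0.13, limma adjusted p = 0.52). For Fyn the closest gene was Hgs (r = 0.981), followed by Nck2 and Nxnl2. For Fgr they were Sf3a2 (r = 0.982), Timd2 and Aldoa, for Blk Pomk (r = 0.968), Med18 and Vac14, and for Pag1 Dido1 (r = 0.957), Fxyd4 and Fxyd6. These are the highest of 14887 genes compared, each over 8 arrays that share the difference between the groups, so they are given as a description without a p-value. Within the Control arrays alone, r with Blk was 0.90 for Pomk, 0.25 for Med18 and -0.41 for Vac14.

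Other genes of the same pathway were taken from lists of further Src family kinases, regulators of these kinases, and the activating and inhibitory arms they act on. Of 49 such genes 47 were analysed. None passed limma at an adjusted p under 0.05, and 6 had an unadjusted p under 0.05, 5 higher and 1 lower in Sca1-HGAL arrays, a share to be read against the 9.59% of all probe sets. Their median difference was 0.02. Groups did not overlap for 5 genes on the higher and 2 on the lower side, against 3.15% and 2.3% of all probe sets. Src itself had a difference of 0.00 (SE 0.06) at a level of 7.20 in both groups, and Frk, a related kinase, -0.06 (SE 0.07) at a dim level of 5.29 in Sca1-HGAL and 5.34 in Control arrays.

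Among 15 other regulators of the kinases, 2 had an unadjusted limma p under 0.05, both with a positive difference, against 9.59% of all probe sets. Sit1, a membrane adaptor that binds phosphatases and Csk, was at 8.84 ± 0.24 in Sca1-HGAL and 8.55 ± 0.06 in Control arrays (SD, n = 4 each), a difference of 0.29 (SE 0.11, limma adjusted p = 0.43). Ptpn11, which encodes the phosphatase SHP-2, had 0.18 (SE 0.08, limma adjusted p = 0.52). The groups of Sit1 and Ptpn11 did not overlap, against 5.45% of all probe sets. Skap2, an adaptor phosphorylated by Src family kinases, had 0.15 (SE 0.07), and Socs1, an inhibitor of cytokine signalling, 0.15 (SE 0.09), neither at an unadjusted p under 0.05. Ptprc, the gene of the phosphatase CD45 that opens the kinases, was at 12.77 in both groups, with a 95% interval of its difference from -0.15 to 0.14.

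In the activating arm, 1 gene had a positive and 1 a negative difference at an unadjusted limma p under 0.05, of 15 analysed. The share over all probe sets was 9.59%. Grb2, an adaptor, had 0.19 (SE 0.07, limma adjusted p = 0.40), and Vav3, an exchange factor, -0.20 (SE 0.07, limma adjusted p = 0.45). Vav2, Lat2 and Cd79a, the next by p, had -0.13, 0.16 and -0.11. The groups of these 3 genes did not overlap, against 5.45% of all probe sets, and those of Grb2 and Vav3 did. Syk had a difference of 0.06 and was named outside the fixed rule because of the series title.

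In the inhibitory arm, 2 of 16 genes had an unadjusted limma p under 0.05, both with a positive difference, against 9.59% of all probe sets. Fcgr2b, the inhibitory Fc receptor whose ITIM is a substrate of Src family kinases, was at 11.76, 11.72, 11.54 and 11.77 in Sca1-HGAL arrays, against 11.36, 11.25, 11.18 and 11.32 in Control arrays. All Sca1-HGAL arrays, replicate 3 included, were above all Control arrays, and the difference was 0.42 (SE 0.07, limma adjusted p = 0.12). Without Sca1-HGAL replicate 3, Fcgr2b passed, with 0.47 (SE 0.07, limma adjusted p = 0.042). In that setting 40 of 21640 probe sets passed, against 1 with all arrays. In 19 of 20 alternative settings none of the 47 other pathway genes passed. Pirb, another ITIM receptor, had 0.46 (SE 0.12, limma adjusted p = 0.28) with groups that did not overlap. The groups of 5.45% of all probe sets did not overlap. Fcrl5, an Fc receptor-like gene, had 0.57 (SE 0.30, limma adjusted p = 0.59), and Cd72 had -0.19 (SE 0.11). Fcrl5 was at 11.15, 10.84, 9.61 and 10.46 in Sca1-HGAL arrays, so its lowest array was replicate 3, as for Ptpn22, and in Control arrays it ran from 9.62 to 10.44. Cd22, a sorting marker, was at 12.70 in Sca1-HGAL and 12.66 in Control arrays.

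**Figure D5:**
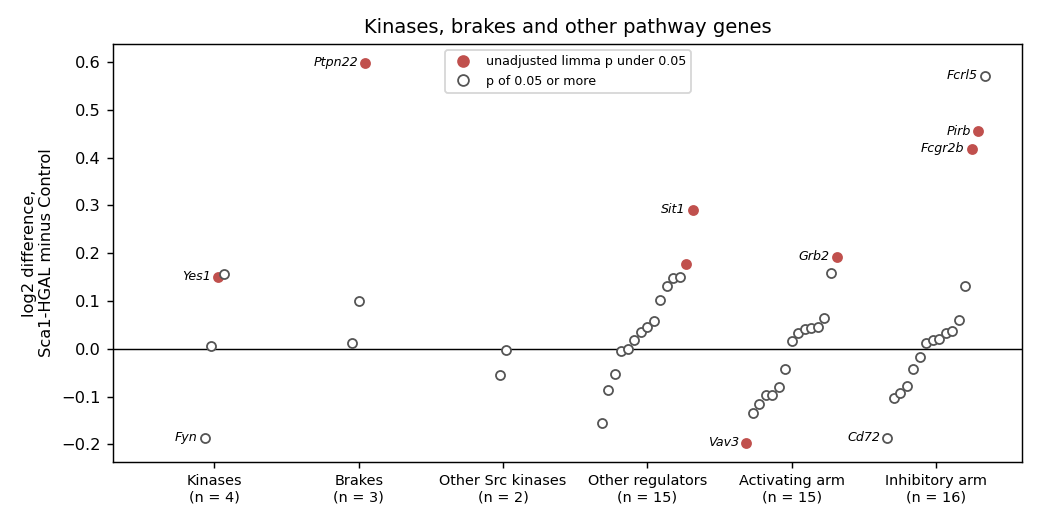
Log2 difference, Sca1-HGAL minus Control, of the 4 kinases, 3 brakes and 47 other pathway genes by list, with filled points at an unadjusted limma p under 0.05. Ptpn6 is in the regulator and the inhibitory list and is drawn in both. Ptpn22 at 0.60 and Fcrl5 at 0.57 are the highest points, and none of the genes passed after adjustment over all probe sets.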

How the data were processed

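Per the labels, RNA came from spleen cells sorted for CD22 and B220 and was run on Affymetrix Mouse Gene 1.0 ST arrays, 4 per group, and the titles name each sample's group and replicate number. The deposited table holds linear intensities, from 4.94 to 24302, which the authors computed with RMA according to the submitters' processing notes. RMA corrects background, equalises the arrays and summarises probes, so it removes a change shared by most genes. No version, annotation or genome build for it is named in the labels used here. Log2 was taken here with no pseudocount or filter.

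Of 34760 probe sets, the 21640 paired with 1 gene symbol were tested with limma 3.58.1 (R 4.3.3; lmFit, then eBayes) on the 2 groups without covariates, with two-sided p-values adjusted by Benjamini-Hochberg and a threshold of 0.05. Those with several symbols (1321) or not listed (11799) were left out. A gene was represented by its probe set with the highest mean over 8 arrays. Members and lists were chosen with earlier results of these data known. Named were all members, up to 4 genes of each list with the smallest p, defining markers, and the 3 genes with the highest Pearson r for each member whose SD exceeded the median. No pair of arrays shared more than 0.0604% of equal values. The fit was tested on simulated data. Alternatives were other normalisations, filters on dim probe sets, array weights, a replicate block, another prior, all rows, probe set means, a pseudocount of 16, leaving out each array, and leaving out or modelling the arrays with high Xist.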

Additional observations from a re-analysis of the deposited data

Results flagged for a closer look

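One of 4 arrays lay far from the other 3 of its group in 10 of the 142 sets of values examined, and chance alone flags about 1 in 20, or 7.1. None of these was a value of the 7 members. Among other pathway genes, Sca1-HGAL replicate 2 was highest for Ptpn11 at 10.0025, Lat2 at 10.87 and Cd22 at 12.89. Among marker genes, Sca1-HGAL replicate 2 was highest for Adgre1 at 9.36, replicate 1 for Gzma at 6.41, replicate 4 for Csf1r at 7.85 and replicate 3 for Uty at 9.59, and replicate 3 was lowest for Lyz2 at 7.67. Control replicate 4 was highest for Pik3r4 at 10.65 and for the mean of the marginal zone B list at 10.29.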

How the results depend on the processing

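The count of members past an adjusted p under 0.05 was 0 in all 20 alternative settings, and the order of the 4 kinases held on every array kept in the 18 settings that kept all of them. Fyn, Fgr, Yes1, Pag1 and Ptpn22 kept their direction in every setting run, with adjusted p from 0.062 to 0.66 for Ptpn22 and from 0.25 to 0.67 for Yes1. Differences near 0 changed sign: Blk was -0.0058 with median centring and -0.061 with array weights, and from -0.069 to 0.072 as single arrays were left out, and Csk was -0.0088 with array weights and from -0.032 to 0.045 as single arrays were left out. With either filter on dim probe sets, 0 members had groups that do not overlap and 1 had an unadjusted p under 0.05, because Yes1 was no longer tested. That last count was 0 without the arrays with high Xist and 1 with high Xist as a covariate. Fewer arrays or degrees of freedom remained in these fits, and whether this or sex moved the count was not tested. As single arrays were left out, the count with an unadjusted p under 0.05 ran from 1 to 4. The count of members whose groups do not overlap ran from 1 to 2. Both highest values came without Sca1-HGAL replicate 3, where 11% of all probe sets had an unadjusted p under 0.05 and 11.2% did not overlap. The count of other pathway genes past an adjusted p under 0.05 was 0 to 1 in these fits. The count of probe sets past it was 12 with array weights, 2 when the probe sets of a gene were averaged, 2 without the arrays with high Xist, and from 1 to 40 as single arrays were left out, highest without Sca1-HGAL replicate 3. With the replicate number as a block it was 6, and the adjusted p was 0.50 for Ptpn22 and 0.58 for Yes1. Samples with the same number had correlations of their deviations from -0.16 to 0.05, so the numbers gave no sign of pairing.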
